A study of Mus musculus with 34 samples.

Results

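RNA-Seq of *Nsd2* knockdown (KD) and control (Ctrl) brown preadipocytes was compared at day 2 (D2) of adipogenesis, with 1 library of each. The members are the genes with at least 1 RPKM (reads scaled to the length of the transcript and the mapped reads of the library) in either library, 11561 of the 23109 genes in the deposited tables. Where a gene had several RefSeq transcripts, the one whose RPKM averaged highest in the 14 RNA-Seq libraries stood for it, and 296 of the 11561 kept a transcript identifier because no symbol was found for it.

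By their labels, the cells of both groups are C57BL/6J brown preadipocytes that are GR-flox/flox (a floxed allele of the glucocorticoid receptor gene), from interscapular brown fat of newborn pups, immortalized with SV40T, whereas the methods of the study give WT newborns as the source. Ctrl cells carried a lentiviral control shRNA and KD cells an shRNA against *Nsd2*, and the sources do not say which of the shRNAs against *Nsd2* was sequenced. D2 is the end of induction with insulin, T3, IBMX, dexamethasone, and indomethacin, and D0 is the confluent culture before it. Libraries of brown preadipocytes infected with retrovirus for histone H3.3, either WT or with the K36M mutation, served for comparison. Each condition is 1 library, so values are compared between libraries, without a test between conditions.

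Nsd2 is a histone methyltransferase that dimethylates lysine 36 of histone H3 (H3K36me2), a mark of active and intergenic chromatin that opposes the repressive H3K27me3 mark. In adipogenesis, the induction cocktail raises C/EBPβ and C/EBPδ, which act before PPARγ and C/EBPα, and the latter pair turns on the genes of lipid uptake, storage, and breakdown. Brown fat cells add a program of heat production with *Ucp1* as its end point.

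*Nsd2* itself (chr5:34163374-34240624 of mm9, plus strand) was at 19.9 RPKM in Ctrl and 5.85 in KD at D0, and at 29 and 7.01 at D2. The D2 ratio was 4.14-fold lower in KD, with a 95% counting interval of 3.85 to 4.47, an interval that covers the counting of reads only. Both KD libraries lay below both Ctrl libraries. The other H3K36 methyltransferases were within 2-fold at D2: *Nsd1* was at 21.6 RPKM in Ctrl and 18.7 in KD, *Nsd3* at 15.7 and 18.2, *Setd2* at 15.6 and 17.2, and *Ash1l* at 14.4 and 18.1. Of 12 members of the list of H3K36 methyltransferases and demethylases, *Nsd2* was the 1 over 2-fold lower and none was higher. *Nr3c1*, the glucocorticoid receptor gene, was at 13.8 RPKM in Ctrl and 10.5 in KD.

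The D2 libraries held 20154997 mapped reads in Ctrl and 17663779 in KD, as recovered from the RPKM, so that 3 reads of a 1-kb transcript were worth 0.149 and 0.170 RPKM. The KD libraries stood apart from the others. *Xist*, the RNA that coats the inactive X chromosome, was at 67.1 RPKM in Ctrl and 0.0379 in KD at D2, at 24.7 and 0.0801 at D0, and between 3.70 and 108 in the 12 libraries other than KD. *Tsix*, which overlaps *Xist* on the other strand, was at 19.5 RPKM in Ctrl and had no reads in KD at D2, but whether counting used strand is not stated, so reads of the pair cannot be told apart. Y-linked genes were present in every library. *Ddx3y* was at 8.29 RPKM in KD at D0 and 23.7 at D2, against 2.91 to 18.6 in the other 12, and *Eif2s3y* at 14.2 and 22.7, against 3.49 to 17.4. *Uty*, at 4.18 and 6.39 in KD, and *Kdm5d*, at 4.32 and 4.34, lay within the ranges of the other 12, 0.793 to 7.38 and 1.08 to 4.89. The median log2 ratio of KD to Ctrl by autosome ran from -0.31 (chromosome 18) to 0.27 (chromosome 14) at D2 and from -0.28 to 0.27 at D0, on the same chromosomes at both ends. The range for K36M over WT at D2 was -0.12 to 0.12, and that for WT over Ctrl at D2 was -0.03 to 0.26. The part of these differences between the cell populations in the results was not tested. Leaving out X- and Y-linked genes, or setting each chromosome's median to 0, left the counts of lower and higher genes within 1.5 times of those given next. These steps act on whole chromosomes, so they cannot show what part single-gene differences between the populations had.

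**Figure D1:**
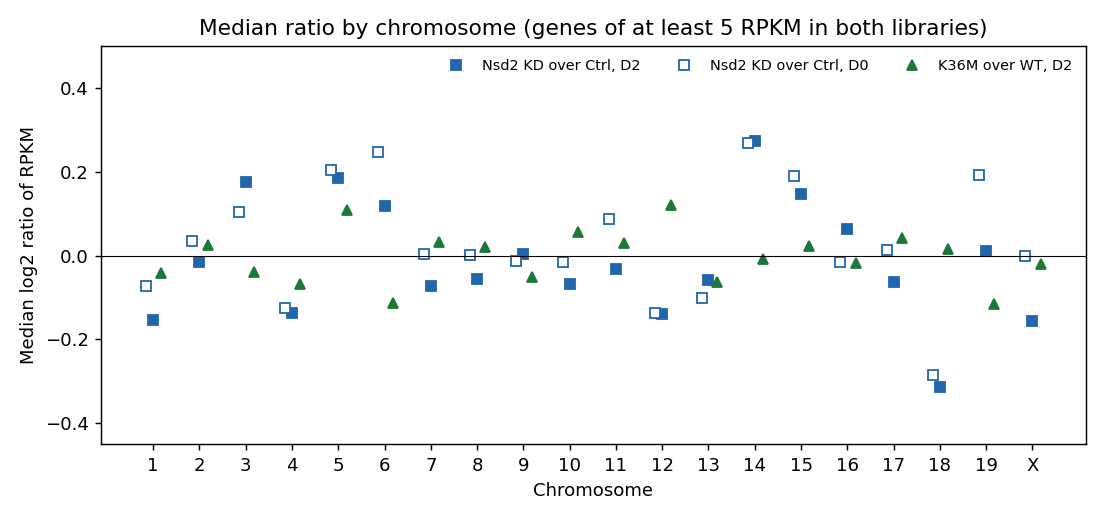
Median log2 ratio of RPKM (vertical axis) for each chromosome (horizontal axis), over genes with at least 5 RPKM in both libraries, for KD over Ctrl at D2 (filled squares) and D0 (open squares) and for K36M over WT at D2 (triangles). KD over Ctrl spans -0.31 to 0.27 over the autosomes at D2, with chromosomes 14 and 18 at the ends on both days, while K36M over WT spans -0.12 to 0.12.

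At D2, 1106 genes were over 2-fold lower in KD than in Ctrl (9.57% of the 11561) and 564 were over 2-fold higher (4.88%). The counts in each gene list below are to be read beside these shares. The median log2 ratio of all members above 0 in both libraries was -0.05. The lower side was the deeper one, with 370 genes over 4-fold lower and 141 over 4-fold higher, and with 99 and 31 over 16-fold. Counting intervals excluded a ratio of 1 for 1071 of the 1106 and for 525 of the 564. In KD, 28 of the lower genes had no reads, and in Ctrl, 14 of the higher genes had none. Near the threshold, 103 genes were 2 to 2.1-fold lower and 122 were 1.9 to 2-fold lower, with 58 and 78 on the higher side.

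A second control gives a view of the spread between cultures. The WT H3.3 library at D2 against the same Ctrl library had 560 genes over 2-fold lower (4.82% of 11610) and 745 over 2-fold higher (6.42%), and 11.2% either way, where KD against Ctrl had 14.4%. The WT library came from cells with another virus and histone transgene, so this spread holds those differences too. Values of the WT library are therefore given beside the main results, since a KD value within the range of both controls cannot be told apart from that spread. Of 112 genes named by the rule that were past 2-fold against Ctrl, 100 were past 2-fold in the same direction against WT, 11 were within 2-fold of WT, and 1, *Ifit1*, was past 2-fold the other way. These genes were picked partly by their ratio to Ctrl, and the same KD library is in both ratios. The 100 are therefore not a replication.

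**Figure D2:**
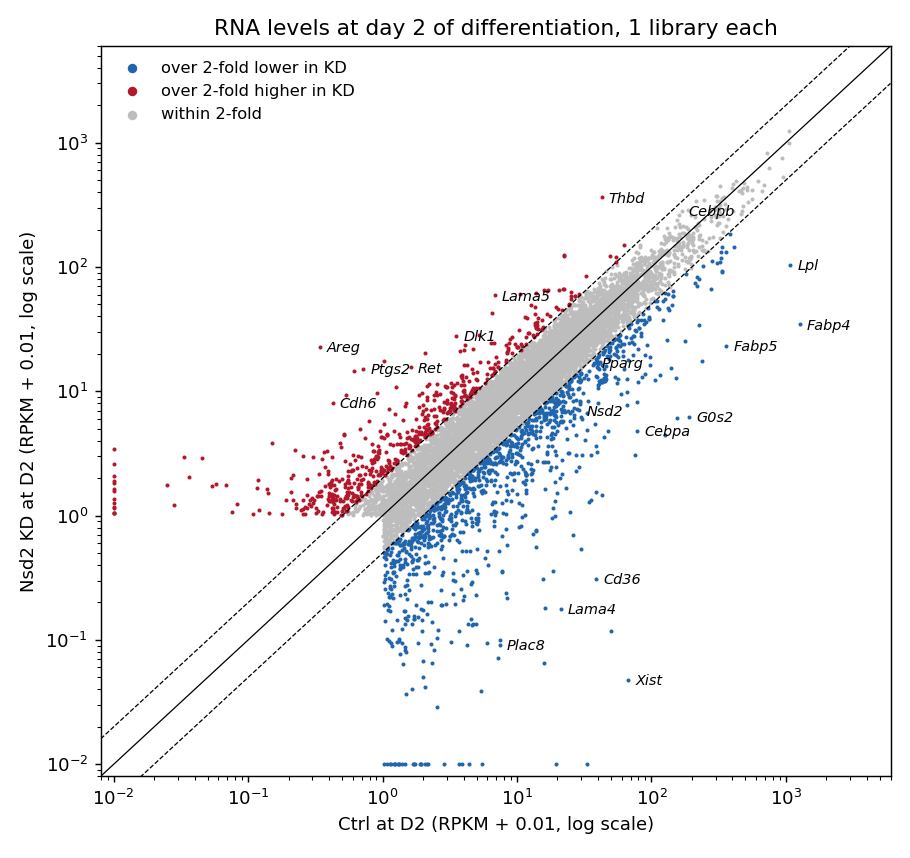
RPKM plus 0.01 in Ctrl (horizontal axis) and KD (vertical axis) at D2 on log scales, 1 point for each of the 11561 genes. The solid line marks equal values and the dashed lines 2-fold differences. The 1106 blue genes include *Fabp4*, *Lpl*, and *Cd36*, and the 564 red genes include *Thbd* and *Areg*.

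The 2 genes highest in Ctrl among those over 2-fold lower in KD belong to lipid uptake. *Fabp4*, the adipocyte fatty acid binding protein (chr3:10204347-10208576, minus strand), was at 1269 RPKM in Ctrl and 34.5 in KD, 36.7-fold lower (33.2 to 40.7). *Lpl*, the lipase that frees fatty acids from circulating lipoproteins (chr8:71404390-71431347, plus strand), was at 1073 and 105, 10.3-fold lower (10.0 to 10.5). The WT library had 3249 and 2145 RPKM of these genes, so that, as ratios, both controls lay farther above KD than they were apart. *Cd36*, a fatty acid translocase, was at 38.5 RPKM in Ctrl, 36.5 in WT, and 0.300 in KD, where 18 reads were counted. *Fabp5*, another fatty acid binding protein, was at 358 and 23.3, with 482 in WT. Of the other genes at the top by level, *Cd164*, a sialomucin, was at 411 in Ctrl and 145 in KD.

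Of 13 genes of fatty acid uptake and lipolysis that were members, 10 were over 2-fold lower, none was higher, and their median log2 ratio was -2.71, against -0.05 for all members. The lipolysis genes were among the 10. *Pnpla2*, the triglyceride lipase ATGL, was at 85.7 RPKM in Ctrl and 13.1 in KD. *Lipe*, hormone-sensitive lipase, was at 74.8 and 3.08, and *Abhd5*, the activator of ATGL, at 61.5 and 19.1. Its inhibitor *G0s2* was also lower, at 192 and 6.25. An activator and an inhibitor of ATGL were thus both over 2-fold lower. The most highly expressed gene of the list that was within 2-fold was *Slc27a4*, a fatty acid transporter, at 17.6 and 15.4.

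The genes of lipid droplets and triglyceride synthesis followed, with 11 of 18 over 2-fold lower, none higher, and a median log2 ratio of -1.18. *Acsl1*, which activates fatty acids to their CoA esters, was at 153 RPKM in Ctrl and 12.9 in KD. *Agpat2*, an acyltransferase of the glycerolipid pathway, was at 66.2 and 7.78, and *Gpam*, which starts that pathway, at 54 and 12.9. *Gpd1*, which supplies glycerol 3-phosphate, had the lowest ratio of the list, at 18.6 and 0.346. Among the droplet coat proteins, *Plin1*, which is made in fat cells, was at 13.8 and 0.548, but *Plin2*, which coats droplets in most cells, was at 205 and 137, within 2-fold. *Plin3* was at 16.6 and 16.4.

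Of 14 members of the list of fatty acid synthesis and desaturation, 3 were over 2-fold lower, *Me1*, *Elovl3*, and *Elovl6*, and none was higher, with a median log2 ratio of -0.83. *Scd1*, the stearoyl-CoA desaturase, was at 134 RPKM in Ctrl and 75.5 in KD, within 2-fold, while the WT library had 1229. Both controls were thus farther from each other than Ctrl was from KD. The 16 genes of the list summed to 528 RPKM in Ctrl, 1725 in WT, and 331 in KD. Cholesterol synthesis and transport had 6 of 20 over 2-fold lower, none higher. Among them was *Abca1*, which exports cholesterol, at 32 and 4.05.

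The transcription factors of adipogenesis did not move as a block. Of 19 members, 9 were over 2-fold lower, 1 was higher, and 9 were within 2-fold, with a median log2 ratio of -0.93. *Cebpa*, which encodes C/EBPα (chr7:35904312-35906945, plus strand), was at 78.7 RPKM in Ctrl, 208 in WT, and 4.80 in KD, 16.4-fold lower than Ctrl (14.3 to 18.8). *Pparg* was at 37.7 in Ctrl, 66.7 in WT, and 16.9 in KD, 2.23-fold lower (2.01 to 2.47), near the threshold. The early factor *Cebpb* was at 168 in Ctrl, 196 in WT, and 284 in KD, above both controls but within 2-fold, and *Cebpd* was at 15.7 and 8.22. Neither early factor was thus over 2-fold lower in KD, and of the late pair *Cebpa* had the larger ratio.

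The *Cebpa* promoter is shown because this factor, at 78.7 RPKM in Ctrl and 4.80 in KD, was lower on both days. It is given as 250 bases before to 50 after the start in RefSeq (GRCm38.p6, chr7:35119043-35119342, plus strand, another build than the mm9 of the gene coordinates), with the TATA box TATAAA in capitals. Both strands were also searched for TGACGTCA, TGANTCA, and CCAAT, which are not in this window.
Cebpa: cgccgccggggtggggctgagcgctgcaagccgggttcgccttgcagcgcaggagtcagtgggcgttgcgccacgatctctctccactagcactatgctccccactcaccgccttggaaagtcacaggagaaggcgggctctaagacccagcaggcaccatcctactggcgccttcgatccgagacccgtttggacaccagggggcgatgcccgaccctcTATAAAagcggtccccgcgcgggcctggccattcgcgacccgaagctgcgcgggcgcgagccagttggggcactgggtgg

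The other lower factors were *Srebf1*, a regulator of lipid synthesis, at 56.4 RPKM in Ctrl and 12.5 in KD, *Klf15* at 12.1 and 2.64, *Ebf1* at 21.9 and 7.62, and *Stat5a* at 8.34 and 2.79. *Zfp423*, a preadipocyte commitment factor, was at 4.23 and 1.10. *Mlxipl*, which encodes the carbohydrate response factor ChREBP, was at 1.47 and 0.0776, the latter from 5 reads. The 1 factor over 2-fold higher was *Klf5*, which acts early in adipogenesis, at 2.47 and 6.27.

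The brown fat label was met in part. *Ebf2*, a factor of brown precursors, was at 16.6 RPKM in Ctrl and 4.26 in KD, and *Prdm16*, a brown fat regulator, at 2.30 and 1.2, within 2-fold. The transcription factor genes *Lhx8* and *Zic1*, markers of the brown lineage, stood on opposite sides: *Lhx8* was at 5.37 in Ctrl and 0.0286 in KD, where 1 read was counted, a ratio of 188 with an interval of 33.3 to 7442, and *Zic1* was at 5.01 and 12.3, 2.45-fold higher. *Ucp1* and *Cidea*, markers of mature brown fat cells, were at or below the worth of 3 reads of a 1-kb transcript in both libraries. The coactivators of oxidative genes were low, *Ppargc1a* at 2.36 and 0.666 and *Ppargc1b* at 6.51 and 1.24. In all, 8 of 11 brown fat and thermogenic members were over 2-fold lower and 1 was higher, and 12 of the 23 listed genes were below 1 RPKM in both libraries. Of the 10 genes taken to check brown adipocyte identity, 8 passed 1 RPKM, with 6 over 2-fold lower and 1 higher.

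Of 19 genes of fatty acid oxidation, 6 were over 2-fold lower and none higher, with *Etfb*, an electron carrier of the mitochondrial pathway, at 96.1 RPKM in Ctrl and 38.1 in KD. Of 25 subunits of the respiratory chain, 2 were over 2-fold lower, *Ndufa4* and *Cox5b*, a share near the 9.57% of all members, and 23 were within 2-fold. All 25 ratios were below 1, with log2 ratios from -1.18 to -0.09 and a median of -0.48. *Atp5b*, a subunit of ATP synthase, was at 559.8 and 415.

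**Figure D3:**
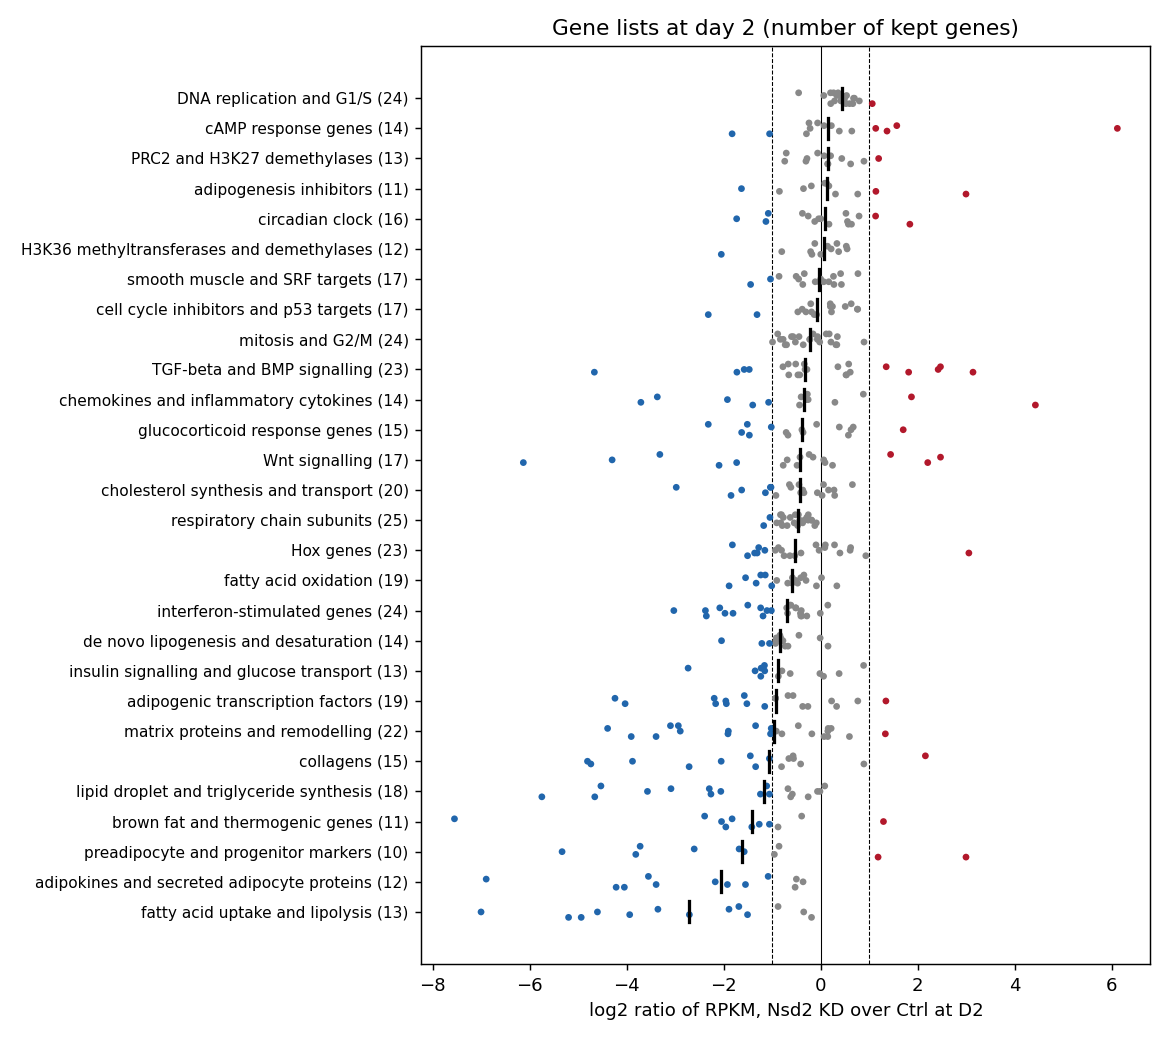
Log2 ratio of RPKM, KD over Ctrl at D2 (horizontal axis), of every member of 28 gene lists (rows, with the number of members that passed 1 RPKM), 1 point per gene. Blue and red points are over 2-fold lower and higher, and black bars are medians, which run from -2.71 for fatty acid uptake and lipolysis to 0.44 for DNA replication.

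Genes of insulin signalling and secreted proteins of fat cells were also on the lower side. *Pde3b*, the phosphodiesterase through which insulin lowers cAMP, was at 66 RPKM in Ctrl and 9.92 in KD. The receptor substrates *Irs1* and *Irs2* were at 6.81 and 88.4 in Ctrl and at 2.66 and 37.7 in KD. *Akt1* was within 2-fold, at 55.1 and 35.6, and *Akt2* was over 2-fold lower, at 10.7 and 4.78. In all, 6 of 13 members were over 2-fold lower and none was higher. Of 12 adipokines and other secreted proteins, 9 were over 2-fold lower and none was higher, with a median log2 ratio of -2.05. *Adipoq*, adiponectin, was low at this stage, at 3.42 in Ctrl and 0.184 in KD. *Rbp4*, the retinol carrier, was at 7.26 and 0.0609, the latter from 1 read. *Serpina3n*, a secreted protease inhibitor, was at 28.7 and 2.44, and *Agt*, angiotensinogen, at 23 and 5.08. This list was already low before induction. Of its 10 members at D0, 6 were over 2-fold lower in KD and 2 higher, with a median log2 ratio of -2.14. *Agt* was 58.5-fold lower in KD at D0 and 4.52-fold lower at D2.

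Genes of the lists for response to glucocorticoids and cAMP stood on both sides at D2, where levels and not the change from D0 are compared. Of 15 glucocorticoid response genes, 5 were over 2-fold lower, 1 was higher, and 9 were within 2-fold. The metallothioneins *Mt1* and *Mt2*, which bind metals, were at 305 and 329.8 RPKM in Ctrl and 107 and 119 in KD. By contrast, *Fkbp5*, a chaperone partner of the receptor, was at 45.4 and 72.2, *Tsc22d3* (GILZ) at 36.3 and 34.2, and *Per1* at 38.3 and 56.8, all within 2-fold. *Sgk1*, a kinase induced by glucocorticoids, was the higher one, at 5.32 and 17.2. Of 14 cAMP response genes, 2 were over 2-fold lower and 4 higher, the latter being *Areg*, *Nr4a1*, *Fosl2*, and *Pde10a*. *Nr4a1* was at 25.2 in Ctrl, 55.3 in KD, and 65.6 in WT, so KD was within the range of the controls. *Fosl2*, a subunit of AP-1, was at 22.4, 66.4, and 30.9. At D0, before the inducers, 4 of 14 glucocorticoid response genes were over 2-fold lower in KD and 1 was higher. Of 13 cAMP response genes, 2 were lower and 4 higher at D0. These D0 counts are to be read beside the shares of all genes at D0, 10.8% lower and 6.61% higher.

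Of 15 collagen members, 8 were over 2-fold lower and 1 was higher. The fibrillar collagen genes *Col1a1*, *Col1a2*, and *Col3a1* were at 89.9, 35.3, and 126 RPKM in Ctrl and at 13.7, 1.32, and 4.48 in KD. In the WT library *Col3a1* was at 34.8, so the controls also differed from each other, but KD was below both. The collagen VI genes *Col6a1* and *Col6a2* were at 382 and 361 in Ctrl and 183 and 132 in KD. *Col15a1* of the basement membrane zone was at 276 and 66.5. The higher one was *Col18a1*, the source of endostatin, at 13.8 and 61.7, and *Col4a1* was within 2-fold at 269 and 170.4.

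Of 22 matrix proteins and remodelling enzymes, 11 were over 2-fold lower and 1 was higher. *Loxl1*, which crosslinks elastin, was at 38.4 RPKM in Ctrl and 3.65 in KD, and *Adamts1*, a matrix protease, at 116 and 13.5. *Fn1*, fibronectin, was at 347 and 363, and the higher gene was *Ccn1*, a matricellular protein, at 9.61 and 24.2. Laminin chains stood on both sides. *Lama4* was at 21.1 in Ctrl and 0.169 in KD, 125-fold lower (78.9 to 211), and *Lama5* was at 6.81 and 59.2, 8.70-fold higher (8.25 to 9.18). The WT library had 9.26 and 13 RPKM of these chains, between Ctrl and KD for both. At D0, *Lama4* was at 5.78 in Ctrl and 0.456 in KD, and *Lama5* at 6.43 and 17.9.

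Markers of preadipocytes were split as well. Of 10 members, 6 were over 2-fold lower and 2 higher. *Pdgfra* and *Pdgfrb*, receptors that mark mesenchymal precursors, were at 4.98 and 17.6 RPKM in Ctrl and 0.354 and 5.88 in KD, with 11.6 of *Pdgfrb* in WT, within 2-fold of KD, and *Ly6a* (Sca-1) was at 11.7 and 1.91. *Thy1* was at 10.8 in Ctrl and 0.816 in KD, with 2.75 in WT. On the higher side, *Dlk1* (Pref-1), a membrane protein of preadipocytes that is lost in adipogenesis, was at 3.51 and 27.9, 7.96-fold higher (7.06 to 9.0), with 6.09 in WT. *Cd24a* was at 4.04 and 9.17. Of 11 adipogenesis inhibitors, 1 was over 2-fold lower, a share near the 9.57% of all members, and 2 were higher, *Dlk1* and *Gata3*. *Gata3* was over 2-fold higher than Ctrl at 2.47 and 5.42, but the WT library had 9.17. In bulk RNA, fewer cells of a kind and less RNA per cell cannot be told apart.

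Markers of other cell types were near the floor. All 9 endothelial genes were below 1 RPKM in both libraries, with sums of 0.238 RPKM in Ctrl and 0.187 in KD and with *Cdh5*, *Tie1*, *Emcn*, and *Cldn5* at 0. Of 9 macrophage and leukocyte genes, 1 passed 1 RPKM, *Cd14* at 0.597 and 1.06, and *Ptprc* was at 0 in both. The sums of that list were 0.774 RPKM in Ctrl and 1.19 in KD. Of 17 skeletal muscle genes, 1 passed, *Pax3* at 4.39 and 8.72, and 8 were at 0 in both, *Myf5*, *Myod1*, and *Myog* among them. The sums of the muscle list were 5.10 RPKM in Ctrl and 9.40 in KD, most of it *Pax3*. The part of these cells in the results was not tested.

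The gene highest in KD on the higher side was *Thbd*, thrombomodulin, an anticoagulant receptor (chr2:148230207-148233924, minus strand). It was at 42.5 RPKM in Ctrl, 42.4 in WT, and 365 in KD, 8.58-fold higher than Ctrl (8.27 to 8.91). The controls were nearly equal at D2 and KD stood far above them. *Vdr*, the vitamin D receptor, was at 22.3 in Ctrl and 122 in KD. *Zyx*, a focal adhesion protein, was at 62.7 and 151, *Slbp*, which binds histone mRNA, at 49.1 and 123, and *Hif1a*, the hypoxia factor, at 54.8 and 119.5. The WT library held 48.1, 32.8, and 62.2 RPKM of the last 3 genes, within 2-fold of Ctrl and below KD, but for *Hif1a* KD was also within 2-fold of WT.

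By ratio, among genes of at least 5 RPKM in either library, the first of the higher side was *Areg*, amphiregulin, a ligand of the EGF receptor (chr5:91568641-91577458, plus strand). It was at 0.331 RPKM in Ctrl, from 8 reads, 3.27 in WT, and 22.9 in KD, 69.2-fold higher (34.8 to 161). *Ptgs2*, cyclooxygenase-2, was at 0.706, 7.39, and 15.1, so the controls differed by more than 10-fold and KD lay above both. The receptor genes *Ret* and *Fzd6* were at 1.60 and 2.05 in Ctrl, 1.06 and 2.92 in WT, and 15.6 and 20.1 in KD. *Cdh6*, a cadherin, was at 0.415, 0.418, and 8.04, and *Slc5a7*, the choline transporter, at 0.527, 2.56, and 9.34. *Cited1*, a transcriptional coregulator, was at 1.02, 2.42, and 17.4, and *P3h2*, a collagen prolyl hydroxylase, at 0.905, 1.28, and 9.65. Also among the 12 with the largest ratios was *Mir705*, a hairpin of 82 bases with 1 read in Ctrl and 21 in KD. It was at 0.605 RPKM in Ctrl, 8.30 in WT, and 14.5 in KD, so that KD was within 2-fold of WT.

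The *Areg* promoter (GRCm38.p6, chr5:91139349-91139648, plus strand) is shown because *Areg* had the largest ratio of the higher side among genes of at least 5 RPKM and belongs to the cAMP response list. Capitals mark the cAMP response element TGACGTCA, which reads the same on both strands, and downstream of it the TATA box TATAAA.
Areg: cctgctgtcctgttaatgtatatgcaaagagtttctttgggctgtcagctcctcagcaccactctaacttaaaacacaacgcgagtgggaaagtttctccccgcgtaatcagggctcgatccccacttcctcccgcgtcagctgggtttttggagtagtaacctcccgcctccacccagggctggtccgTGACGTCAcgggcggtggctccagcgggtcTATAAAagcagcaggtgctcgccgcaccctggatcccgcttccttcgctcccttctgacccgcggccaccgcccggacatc

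Among genes of at least 5 RPKM in either library, the 12 with the largest decrease held *Xist*, *Tsix*, *Lhx8*, *Cd36*, *Lama4*, *Rbp4*, and 1 transcript with no symbol. The other 5 were *Aldh1a7*, an aldehyde dehydrogenase, at 15.9 RPKM in Ctrl and 0.0550 in KD, *Adh1*, an alcohol dehydrogenase, at 16.1 and 0.170, *Plac8* at 7.41 and 0.0813, *Pi15* at 7.48 and 0.0900, and *Sfrp2*, a secreted Wnt antagonist, at 5.95 and 0.0849. In KD, these 5 values came from 1 to 11 reads each. The WT library had 18.7, 36.8, 2.86, 1.57, and 3.24 RPKM, all above KD. At D0, *Sfrp2* was at 96.4 in Ctrl and 0.143 in KD, and *Plac8* at 8.07 and 7.75. *Aldh1a7*, *Adh1*, and *Pi15* were below 1 RPKM in both D0 libraries. How reads shared by similar genes, such as aldehyde dehydrogenases or metallothioneins, were counted is not stated.

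Ligands and regulators of TGF-β and BMP signalling were on both sides, with 4 of 23 members over 2-fold lower and 5 higher. *Inhba*, the activin A subunit, was at 5.16 RPKM in Ctrl, 16.4 in WT, and 28.5 in KD, within 2-fold of WT. *Skil*, a Smad corepressor, was at 4.03, 6.45, and 21.5, and *Grem1*, a BMP antagonist, at 1.24, 4.47, and 10.9. Of 17 Wnt pathway members, 5 were over 2-fold lower and 3 higher. The receptor gene *Fzd4* was at 16.2 in Ctrl and 1.63 in KD, opposite to *Fzd6*, and *Ctnnb1*, β-catenin, was at 154 and 163.

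Genes of DNA replication and mitosis were within 2-fold with 1 exception, *Ccne2*, cyclin E2, at 14 RPKM in Ctrl, 15.3 in WT, and 29.1 in KD, within 2-fold of WT. As 1 of 24 genes of DNA replication and G1/S, *Ccne2* is a share near the 4.88% of all members that were higher. These 24 genes had a median log2 ratio of 0.44, with *Mcm2* of the replicative helicase at 131 and 207. The 24 genes of mitosis had a median of -0.23 at D2, where none was over 2-fold lower or higher. At D0, before induction, 19 of these 24 had been over 2-fold lower in KD, with a median of -1.47. Of 17 cell cycle inhibitors and p53 targets, *Cdkn2c*, at 16.6 and 6.65, and *Cdkn1c*, at 3.41 and 0.684, were over 2-fold lower and none was higher, and *Cdkn1a* (p21) was at 119 and 96.6. The share of lower genes in this list is near the 9.57% of all members.

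Of 13 members of PRC2, the complex that writes H3K27me3, and the H3K27 demethylases, 12 were within 2-fold and none was over 2-fold lower. Of all members, 9.57% were lower and 4.88% higher. *Mtf2*, an accessory subunit, was higher, at 9.96 RPKM in Ctrl, 11.4 in WT, and 22.8 in KD, within 2-fold of WT. *Ezh2*, the catalytic subunit, was at 26.9 and 49.8, and the demethylase genes *Kdm6a* and *Kdm6b* at 7.93 and 32.6 in Ctrl and 6.41 and 26.7 in KD. Of 23 Hox genes, 6 were over 2-fold lower and 1 was higher, *Hoxa10*, at 0.344 and 2.86.

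Several interferon-stimulated genes were lower in KD than in Ctrl, and some of these were no lower than in WT. Of 24 members, 11 were over 2-fold lower and none was higher, with a median log2 ratio of -0.69. *Isg15*, a ubiquitin-like modifier, was at 19 RPKM in Ctrl, 4.43 in WT, and 4.49 in KD, and *Ifit1*, an RNA binding antiviral protein, at 11.5, 0.933, and 2.23. The WT library was at or below KD for both. At D0, 20 of the 24 genes were over 2-fold lower in KD, with a median of -3.13.

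Of 14 chemokines and inflammatory cytokines and related genes, 5 were over 2-fold lower and 2 higher. *Saa3*, an acute phase protein, was at 44.1 RPKM in Ctrl, 286 in WT, and 4.26 in KD, and the chemokine genes *Cxcl12* and *Ccl2* were at 19.7 and 9.85 in Ctrl and 1.51 and 3.72 in KD. Smooth muscle genes and targets of SRF, the serum response factor, were mostly within 2-fold at D2, with 2 of 17 lower, *Tagln2* and *Myl9*, none higher, and a median log2 ratio of -0.03. The share of lower genes is near the 9.57% of all members. At D0, 6 of the 17 were over 2-fold lower, with a median of -0.65. Of 16 circadian clock genes, 3 were over 2-fold lower and 2 higher at D2, where 9.57% of all members were lower and 4.88% higher. *Nr1d1*, the repressor REV-ERBα, was at 6.38 in Ctrl and 1.92 in KD, and *Per2*, a period gene, at 4.51 and 9.85.

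**Figure D4:**
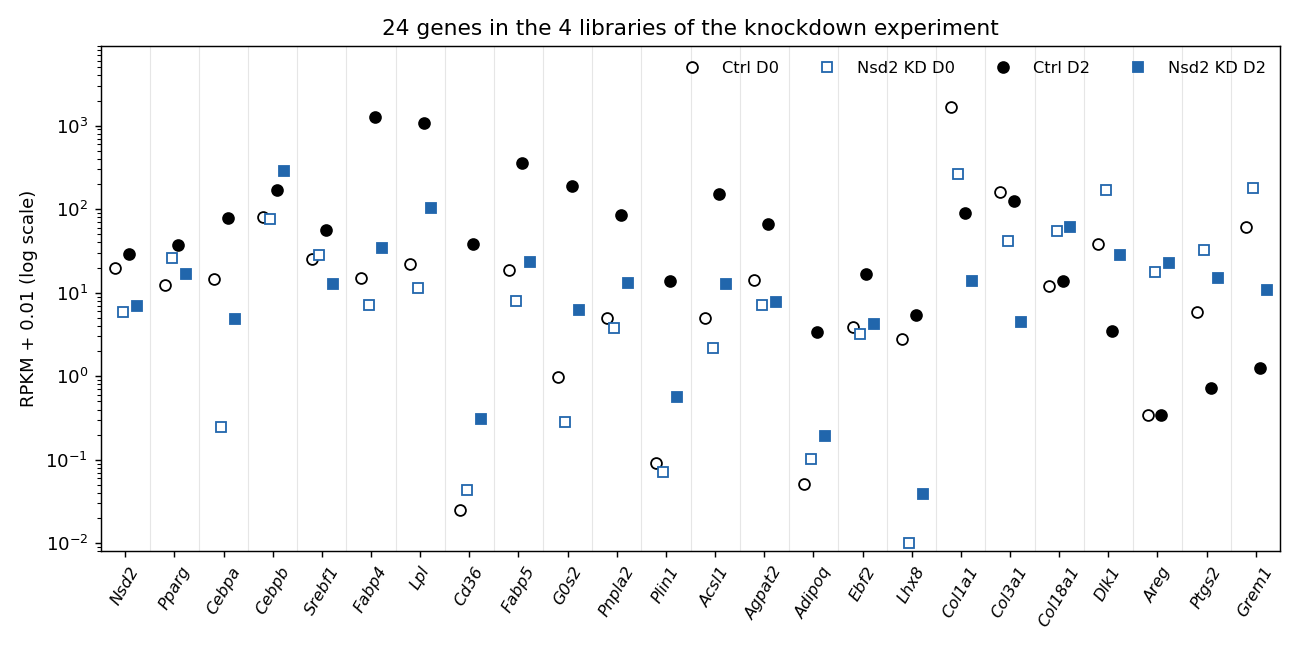
RPKM plus 0.01 on a log scale (vertical axis) of 24 genes (horizontal axis) in Ctrl (circles) and KD (squares) at D0 (open) and D2 (filled), 1 library per symbol. Genes of lipid metabolism such as *Fabp4* reach 1269 RPKM in Ctrl at D2 and 34.5 in KD, while *Cebpa* is already lower in KD at D0.

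The D0 libraries show which of the differences were there before induction. Over 11127 genes with at least 1 RPKM in either library of both days, 959 were over 2-fold lower in KD at D2, and 475 of them (49.5%) were also over 2-fold lower at D0. These were 46.4% of the 1024 genes lower at D0, and 9.20% of all 11127 were lower at D0. On the higher side, 230 of 493 (46.7%) were also higher at D0, which was 40.9% of 563, against 5.06% of all. Over all genes of at least 1 RPKM at D0, 10.8% were lower and 6.61% higher. The D0 and D2 comparisons share no library but share the 2 infected cell populations. Across 10202 genes with at least 1 RPKM in all 4 libraries, the log2 ratios had a Pearson r of 0.48 and a Spearman rho of 0.43, with genes that are not independent of each other.

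*Cebpa* was lower on both days, with 14.7 RPKM in Ctrl and 0.239 in KD at D0, a larger ratio than at D2. The collagen genes *Col1a1* and *Col1a2* were at 1678 and 484 in Ctrl and 263 and 8.21 in KD at D0. On the higher side, *Areg* was at 0.338 and 17.5 at D0, *Thbd* at 25.3 and 79.6, and *Dlk1* at 38.1 and 171. The WT library at D0 had 1.09, 158, and 27.6 RPKM of these genes. For *Thbd*, KD at D0 was thus within the range of the controls, while for *Areg* and *Dlk1* it was above both. *Fabp4* was over 2-fold lower at D0 too, at 14.8 and 7.16, a much smaller ratio than at D2. Some other lipid genes were within 2-fold at D0. *Lpl* was at 22.2 and 11.5 at D0, *Pnpla2* at 4.97 and 3.77, and *Lipe* at 1.58 and 1.38. *Cd36*, at 0.0149 and 0.0338, was below 1 RPKM in both D0 libraries. Of 15 lipid droplet and triglyceride genes that also passed 1 RPKM at D0, 1 was over 2-fold lower and 4 were higher at D0. The shares of all genes at D0 were 10.8% lower and 6.61% higher. At D2, 11 of 18 genes of this list were lower and none was higher.

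Of the 959 genes lower at D2, 42 (4.38%) had been over 2-fold higher at D0, against 5.06% of all genes, and of the 493 higher at D2, 14 (2.84%) had been lower, against 9.20%. Neither share was above that of all genes, and some of these genes rested on 5 reads or fewer. With at least 5 RPKM, the numbers were 17 and 4. *Pparg* was one of the 42. It was at 12.5 RPKM in Ctrl and 26.4 in KD at D0, so that KD was 2.11-fold higher before induction and 2.23-fold lower at D2. *Irs2* was at 6.46 and 23 at D0, and *Angptl4*, an inhibitor of lipoprotein lipase, at 9.10 and 30.6, with 142 and 49.7 at D2. In Ctrl, all 3 genes were higher at D2 than at D0. In KD, *Pparg* was lower at D2 than at D0, while *Irs2* and *Angptl4* were higher.

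**Figure D5:**
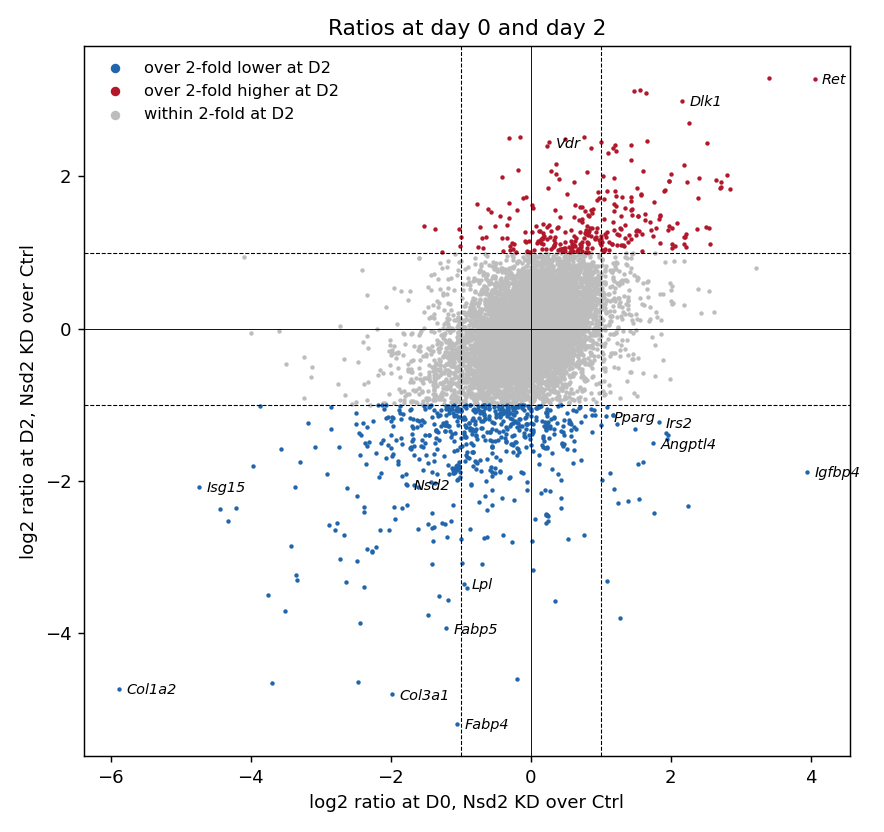
Log2 ratio of KD over Ctrl at D0 (horizontal axis) and at D2 (vertical axis) for 10202 genes with at least 1 RPKM in all 4 libraries, 1 point per gene. Dashed lines mark 2-fold, colours mark the call at D2, and *Pparg*, *Irs2*, *Angptl4*, and *Igfbp4* lie to the lower right, higher in KD at D0 and lower at D2.

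The K36M mutant of histone H3.3, which lowers H3K36 methylation by blocking the enzymes that write it, gives a comparison in other libraries of the same day. Over 11225 genes with at least 1 RPKM in either library of each comparison, 1060 were over 2-fold lower in KD, and 178 of them (16.8%) were also over 2-fold lower in K36M than in WT. These were 41.0% of the 434 genes lower in K36M, and 3.87% of all 11225 were lower there. Of the same 1060, 207 (19.5%) were over 2-fold higher in K36M, against 8.30% of all. Each share was thus above that of all genes. The order of the raw shares turned with a minimum of 5 RPKM, over 7968 genes. There, of 592 genes lower in KD, 105 (17.7%) were lower in K36M, against 2.85% of all. Another 76 (12.8%) were higher in K36M, against 4.58% of all. Of 450 genes higher in KD, 167 (37.1%) were higher in K36M and 26 (5.78%) were lower. Over all genes of at least 1 RPKM in K36M or WT, 4.37% were lower and 11.2% higher in K36M. Across 10286 genes with at least 1 RPKM in all 4 libraries, Pearson r was 0.14 and Spearman rho was 0.10.

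Some lists of lipid genes were also lower in K36M, and others were not. Whatever their call in KD, 7 of 13 members of fatty acid uptake and lipolysis and 9 of 18 of lipid droplets and triglyceride synthesis were over 2-fold lower in K36M, and none was higher. Of 14 members of fatty acid synthesis and desaturation, 1 was lower and 2 were higher in K36M. Cholesterol synthesis and transport had 1 of 19 lower and 1 higher, and fatty acid oxidation had 0 of 19 lower and 1 higher. *Fabp5* was at 482 RPKM in WT and 37.7 in K36M, a ratio close to that of KD to Ctrl, while *Fabp4* was at 3249 and 1473 and *Cebpa* at 208 and 44.9, smaller ratios than in KD. Among the genes lower in both comparisons, *Gpd1* was at 16.5 and 3.09, and *Fgf10*, a growth factor of the fat pad, was at 19.3 and 1.22 in WT and K36M and at 13.9 and 0.755 in Ctrl and KD. *Pparg* was within 2-fold in K36M, at 66.7 and 49.6.

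Many matrix and precursor genes were higher in K36M instead. Of 10 preadipocyte markers, 6 were over 2-fold higher in K36M and none lower, and of 22 matrix proteins 10 were higher and 2 lower. *Thy1* was at 2.75 RPKM in WT and 13.2 in K36M, *Col3a1* at 34.8 and 99.2, and *Plac8* at 2.86 and 137, each higher in K36M and lower in KD. Interferon-stimulated genes had 16 of 22 higher in K36M and none lower. *Dlk1*, at 6.09 and 17.4, *Grem1*, at 4.47 and 59.4, and *Vdr*, at 32.4 and 101, were over 2-fold higher in both. *Inhba* was at 16.4 and 3.76, over 2-fold lower in K36M and higher in KD.

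Promoter sequence was searched for the members with an entry in the RefSeq promoter table (GRCm38.p6), 8869 in all, of which 770 were over 2-fold lower and 381 over 2-fold higher. TGACGTCA, as in the *Areg* promoter, is present in 2.03% of all 27025 promoters, in 3.73% of the members, in 1.30% of the lower genes (10 of 770), and in 3.94% of the higher genes (15 of 381). TATAAA is present in 15.7% of all, 8.35% of the members, 11.2% of the lower, and 13.6% of the higher genes. TGANTCA, the AP-1 motif, is present in 8.97% of all, 5.77% of the members, 8.83% of the lower, and 11.0% of the higher genes. CCAAT is present in 41.1%, 43.9%, 44.0%, and 43.0%. These are matches of letters on either strand, without a measurement of binding.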

How the data were processed

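RNA-Seq was done on the cells described above, and the authors deposited 1 table of RPKM values per RefSeq transcript for each library, 29082 transcripts in all. The submitters' processing notes name CASAVA 1.8.2 and mm9, and the RNA mapper and counter are not given in the sources used here. Symbols were found for 97.8% of the transcripts. Since RPKM moved in steps of 1 read, whole reads were recovered for 26945 of the 26946 transcripts tested (whole to within 1e-08 of a read, plus 3e-11 for each read), of which 52 were multiplied to reach a whole transcript length.

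A gene was called over 2-fold lower or higher from the ratio of RPKM, with a 95% exact (Clopper-Pearson) interval of the recovered reads. The call was made on RPKM as deposited, so a gene with no reads in 1 library was called, and 0 was set to 3 reads only for printed ratios and medians. With 1 library per group, no test between conditions was possible. Scripts were tested on simulated data (Python 3.11.15, pandas 2.3.3, SciPy 1.17.1).

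Named were the H3K36 methyltransferases, the 12 genes with the largest ratio on each side (at least 5 RPKM in either library), the 6 with the highest RPKM on each side, and from each of 32 gene lists (588 distinct genes) up to 4 genes past 2-fold and 1 that was not, by RPKM, plus core adipogenic genes. The members and lists were chosen with earlier results of these data known. These genes lie outside the rule and were chosen after their values were seen: *Abhd5*, *Akt2*, *Angptl4*, *Ccn1*, *Cd24a*, *Cdh5*, *Cebpd*, *Cidea*, *Cldn5*, *Col18a1*, *Col1a1*, *Col1a2*, *Ddx3y*, *Eif2s3y*, *Emcn*, *Ezh2*, *Fgf10*, *Gpd1*, *Igfbp4*, *Irs1*, *Kdm5d*, *Kdm6a*, *Kdm6b*, *Klf15*, *Klf5*, *Lipe*, *Mlxipl*, *Myf5*, *Myod1*, *Myog*, *Pde10a*, *Pdgfra*, *Plin1*, *Plin3*, *Pnpla2*, *Ppargc1a*, *Ptprc*, *Sgk1*, *Stat5a*, *Tie1*, *Tsc22d3*, *Ucp1*, *Uty*, and *Zfp423*. Gene coordinates are from GENCODE M1 (mm9). Some genes that the rule names are not reported here.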

Additional observations from a re-analysis of the deposited data

Results flagged for a closer look

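For 2 of the named genes, the ratio of KD to Ctrl was over 2-fold one way at D0 and over 2-fold the other way at D2. *Pparg*, the PPARγ gene, had a log2 ratio of 1.08 at D0 and -1.16 at D2. *Irs2*, an insulin receptor substrate, had 1.83 at D0 and -1.23 at D2. With 1 library per condition, the difference between the days was not tested.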

How the results depend on the processing

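No paired analysis was possible because each condition has 1 library, and no replicate could be left out for the same reason. The 1106 lower and 564 higher genes became 3178 and 2057 with all genes above 0 RPKM, 622 and 234 with at least 5 RPKM, 724 and 300 with the counting interval wholly past 2-fold, 552 and 244 at over 3-fold, and 1946 and 959 with the WT library in place of Ctrl. With a pseudocount of 1, 286 were higher. The log2 ratio of 51 of 150 named genes left its counting interval with that pseudocount, and 0 turned direction. With at least 5 RPKM, the genes shared with D0 became 224 lower and 95 higher, and those shared with K36M 105 and 54. The log2 ratio of *Nsd2*, -2.05, became -1.91 with a pseudocount of 1 and -1.81 against WT. Against WT, the log2 ratio of 115 of 150 named genes left its counting interval and the median of 9 of 29 lists moved by more than the spread within the list, and the direction turned for *Gata3* (-0.76), *Nr4a1* (-0.25), *Isg15* (0.020), and *Ifit1* (1.26). The cause was not tested. Without X- and Y-linked genes, an alternative added after seeing the data, 1057 were lower and 541 higher, and with each chromosome's median set to 0, also added then, 1075 and 552. With 0 set to 3 reads before the call, added then too, 1092 were lower and 553 higher. Counting error limits genes of few reads, and no condition has a replicate culture.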
